A study of Mus musculus with 6 samples.

Results

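Vmn2r111, Vmn2r112, Vmn2r113, Vmn2r114, Vmn2r115, Vmn2r116 and Vmn2r117 are 7 V2R pheromone receptor genes in one run on mouse chromosome 17, measured here in AP-2e null and wild-type vomeronasal organs (VNOs). They were selected on their AP-2e null and wild-type signals, which differed little while most V2R genes were far lower in the null. The group takes in every gene whose symbol on the array lies from Vmn2r111 to Vmn2r117 by its number. All 7 were measured, by 10 probe sets, among 109 measured V2R genes and 22180 genes in all. Their values in the 2 genotypes are therefore given as a description, without a test. VNO RNA was measured at postnatal day 17 on 1 Affymetrix whole-transcript array per sample, with 3 AP-2e null and 3 wild-type samples. The labels call the samples biological replicates, name neither strain nor sex, and do not say which allele makes the AP-2e null or how many animals went into a sample. The spread between arrays may therefore be in part technical. The values are log2 signals, so a difference of 1 is a doubling of the linear signal.

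V2Rs are G protein-coupled receptors with a large extracellular domain that binds peptide and protein cues. They are made by the basal neurons of the VNO, which signal through the G protein subunit Gnao1, and most V2Rs are made together with a family C V2R as co-receptor. AP-2e, the protein of Tfap2e, is a transcription factor of maturing basal neurons. Among the 7 receptors, Vmn2r116 is known as the receptor of ESP1, a peptide in the tear fluid of male mice, and Vmn2r115 as the receptor of ESP22, a peptide in the tears of juvenile mice. RefSeq lists the 7 genes also as V2rp receptors, a name they share as a subgroup.

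The sequences at the starts of these genes are shown first, because they are what the 7 genes share apart from their signals. The windows, from RefSeq (build GRCm38.p6), hold 250 bases before and 50 bases after the annotated start. In all 7 the annotated start is the start codon itself, as in 100 of 116 V2R windows and in 5.83% of all windows, so the windows are counted from the start of translation. Where transcription starts is not stated in these sources. Of the windows printed below, that of Vmn2r116 carries its start codon in capitals. In the others, capitals mark bases that differ from Vmn2r116 or have no partner there in a global alignment. Vmn2r115 and Vmn2r114 are shown as the closest pair, Vmn2r113 as the member that departs most, and Vmn2r44, a chromosome 7 V2R gene, as the measured gene outside the 7 whose window was most like theirs.
Vmn2r116, chr17:23384553-23384852, plus strand: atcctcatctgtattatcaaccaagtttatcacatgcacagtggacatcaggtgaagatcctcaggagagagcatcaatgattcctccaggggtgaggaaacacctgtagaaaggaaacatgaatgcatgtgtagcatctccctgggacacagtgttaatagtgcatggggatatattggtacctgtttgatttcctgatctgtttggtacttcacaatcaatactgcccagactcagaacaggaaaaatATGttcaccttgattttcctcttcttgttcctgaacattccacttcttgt
Vmn2r115, chr17:23343727-23344026, plus strand: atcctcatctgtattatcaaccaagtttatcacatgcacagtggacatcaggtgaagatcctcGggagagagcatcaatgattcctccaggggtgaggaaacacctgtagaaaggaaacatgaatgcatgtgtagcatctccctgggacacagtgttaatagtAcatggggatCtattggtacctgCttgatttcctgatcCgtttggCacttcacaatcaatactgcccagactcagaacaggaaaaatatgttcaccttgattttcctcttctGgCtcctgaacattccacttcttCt
Vmn2r114, chr17:23312264-23312563, minus strand: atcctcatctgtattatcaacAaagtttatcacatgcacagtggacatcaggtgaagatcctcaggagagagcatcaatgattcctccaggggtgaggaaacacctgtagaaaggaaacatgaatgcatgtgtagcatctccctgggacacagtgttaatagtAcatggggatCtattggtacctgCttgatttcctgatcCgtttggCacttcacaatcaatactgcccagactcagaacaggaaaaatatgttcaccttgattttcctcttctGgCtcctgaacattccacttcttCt
Vmn2r113, chr17:22942934-22943233, plus strand: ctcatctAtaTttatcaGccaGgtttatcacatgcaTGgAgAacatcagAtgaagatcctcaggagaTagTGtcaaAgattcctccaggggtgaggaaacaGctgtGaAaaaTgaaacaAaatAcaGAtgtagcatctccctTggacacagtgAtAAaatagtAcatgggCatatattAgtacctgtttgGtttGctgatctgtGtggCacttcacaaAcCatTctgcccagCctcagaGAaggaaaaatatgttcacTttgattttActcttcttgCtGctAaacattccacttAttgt
Vmn2r44, chr7:8383189-8383488, minus strand: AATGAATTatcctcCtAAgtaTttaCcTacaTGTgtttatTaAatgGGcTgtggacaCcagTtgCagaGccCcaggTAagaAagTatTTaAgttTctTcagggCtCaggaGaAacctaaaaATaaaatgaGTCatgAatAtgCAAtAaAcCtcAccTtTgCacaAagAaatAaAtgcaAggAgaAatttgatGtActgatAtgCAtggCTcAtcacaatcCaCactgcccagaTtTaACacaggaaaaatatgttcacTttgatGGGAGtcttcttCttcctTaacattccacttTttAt

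Apart from Vmn2r113, the windows of these genes were nearly the same sequence. Any 2 of the other 6 were between 96.0% and 99.3% identical. Vmn2r114 and Vmn2r115 differed at 2 of 300 positions, and Vmn2r111 and Vmn2r112, whose starts face away from each other on opposite strands, at 5. Vmn2r113 was between 83.2% and 84.9% identical to the other 6. Its window had 40 bases that differed from Vmn2r116, with 4 more bases on each side without a partner. The windows of the 109 V2R genes outside the group were between 49.6% and 67.1% identical to the nearest of the 7, with a median of 56.5%. That of Vmn2r44 was 66.0% identical to Vmn2r116.

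No match to the palindromic AP-2 motif GCCNNNGGC was found in the 7 windows, searched on both strands. The motif was in 7.76% of V2R windows and in 16.6% of all 32851 windows. A looser AP-2 form was CCCNNAAGC, CCCNNAGGC, CCCNNGAGC or CCCNNGGGC, or the same strings with G as the first base. It was in none of the 7 windows, in 49.1% of V2R windows and in 43.0% of all windows. These strings overlap in part with GCCNNNGGC. The looser form was in 57 of 116 V2R windows, so many windows outside the 7 lack it too. Among them is the printed window of Vmn2r44, which holds neither form and whose gene had a difference of -4.17. Motif and difference were not compared across the V2R genes. Apart from Vmn2r113 the windows of the 7 genes are nearly the same sequence, so the lack of a match is not 7 separate observations. All 7 windows are counted from the start codon, as are only 5.83% of all windows, so the shares over all windows come mostly from unlike positions. Nothing about binding of AP-2e at or beyond these windows follows from the letters.

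Tfap2e itself, the targeted gene, had log2 signals of 5.97, 6.09 and 6.04 on the AP-2e null arrays, against 6.46, 6.76 and 6.92 on the wild-type arrays. The arrays of the genotypes did not overlap, and the difference of -0.68 (SE 0.13) did not pass over all genes (limma, adjusted p = 0.431). No source used here says whether its probes cover the altered part of the gene. The deposited values were quantile normalized, which by itself brings the arrays close together in signal distribution. Over all probe sets, medians lay between 4.997 and 5.079 and correlations between arrays lay between 0.971 and 0.985. The threshold was an adjusted p of 0.05 (limma, Benjamini-Hochberg, over 22180 genes). At it 48 genes fell (0.216% of those tested) and 2 rose (0.00902%), 0.225% together.

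As a group, the 7 receptors were close to level between the genotypes. Their mean log2 signal was 6.74, 6.74 and 6.75 on AP-2e null arrays 1, 2 and 3, against 6.84, 6.85 and 7.06 on wild-type arrays 1, 2 and 3. The null arrays lay within a narrow band just under the wild-type arrays, and wild-type replicate 3 stood above the other arrays. The group means were 6.74 ± 0.01 in AP-2e null and 6.92 ± 0.12 in wild-type VNOs (SD, n = 3 each), a difference of -0.17, which was -0.11 without wild-type replicate 3. That array also had the lowest mean signal of the neutrophil markers, as given with the other cell types, and the highest of the other V2R genes. Among the basal neuron markers it was highest for Gnao1, Calr4, Kirrel3 and Robo2 and lowest for Gng8. The part of these genes in the group mean was not tested. The other 102 V2R genes had mean signals of 4.43, 4.27 and 4.26 on the AP-2e null arrays, against 6.52, 6.35 and 6.76 on the wild-type arrays. Their mean difference was -2.22 and their median -1.95, beside a median of -0.21 for the 7 genes and 0.00 for all genes tested. Of those 102 genes, 42 fell past the threshold and 0 rose. Of the 7 genes 0 passed in either direction, beside the 0.225% of all genes, and this follows from how they were chosen. In a bulk sample, fewer cells of a type and less RNA per cell cannot be told apart, for these genes as for the others.

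**Figure D1:**
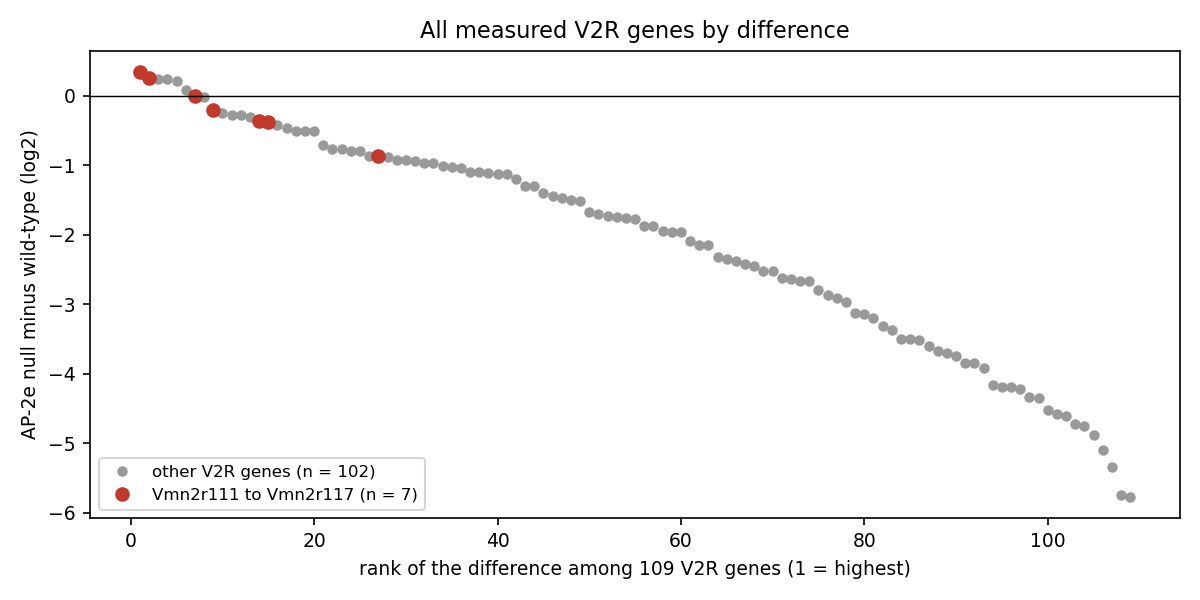
AP-2e null minus wild-type difference in log2 signal (vertical axis) of each of the 109 measured V2R genes, ordered from the highest to the lowest difference (horizontal axis, rank), with Vmn2r111 to Vmn2r117 in red and the other 102 V2R genes in grey. The 7 genes hold ranks 1, 2, 7, 9, 14, 15 and 27. Rank 2 is Vmn2r113 by its brightest probe set, the only one of its 4 that is higher in the null.

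Within the group the differences ran from 0.34 for Vmn2r112 to -0.87 for Vmn2r114. Of the 7 genes, 3 had higher and 4 had lower means in AP-2e null VNOs. In 5 of the 7 the arrays of the genotypes overlapped. The others, Vmn2r113 by its brightest probe set and Vmn2r114, were separated in opposite directions. For Vmn2r113 this depends on the probe set. Its probe set 17334030 was separated in the same direction as Vmn2r114 (-0.95), and its remaining probe sets overlapped (-0.15). Over all genes, 7.06% were separated in this way.

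Vmn2r116, the ESP1 receptor, had the smallest difference of the 7. Its log2 signals were 5.86, 6.02 and 6.12 on the AP-2e null arrays, against 5.96, 6.02 and 6.02 on the wild-type arrays. The highest and the lowest values were both from null arrays, and the wild-type values fell between them. Null replicate 2 and wild-type replicates 2 and 3 held the same value, 6.0201, so the wild-type SD rests on few distinct values. Why they were equal was not tested. The means were 5.9995 ± 0.1275 in AP-2e null and 5.9986 ± 0.0372 in wild-type VNOs (SD, n = 3 each), and their difference was 0.00091 (SE 0.08). Leaving out single arrays put it between -0.06 and 0.07, so its sign is not settled.

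Vmn2r115, the ESP22 receptor, was a little lower in the null. Its log2 signals were 7.30, 7.97 and 7.73 on the AP-2e null arrays, against 8.20, 8.22 and 7.67 on the wild-type arrays. Null replicate 1 stood lowest and wild-type replicate 3 lay among the null arrays. The difference was -0.36 (SE 0.23), a signal 1.29-fold lower, which is about the spread between arrays of a genotype (SD 0.34 in the null and 0.31 in wild-type). It was -0.18 without AP-2e null replicate 1.

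Vmn2r114, read by 1 probe set, was the member with the largest difference. Its log2 signals were 5.53, 5.60 and 5.21 on the AP-2e null arrays, against 6.05, 6.28 and 6.62 on the wild-type arrays. Every null array was lower than every wild-type array. The means were 5.44 ± 0.21 in AP-2e null and 6.31 ± 0.29 in wild-type VNOs (SD, n = 3 each), which is a 1.83-fold lower signal (difference -0.87, SE 0.18). Of the other 102 V2R genes, 20 had a higher (less negative) difference than Vmn2r114, so this gene was nearer to the middle of the family than its 6 neighbours. Its window differs from that of Vmn2r115 at 2 positions, and the 2 genes differed by -0.87 and -0.36 between the genotypes.

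Vmn2r113 was read by 4 probe sets, which differed in direction. The brightest, 17341451, gave 9.56, 9.54 and 9.80 on the AP-2e null arrays, against 9.45, 9.33 and 9.36 on the wild-type arrays. All its null arrays were higher, by 0.26 (SE 0.09) in the mean. Probe set 17334030 gave 8.99, 8.37 and 8.78 on the AP-2e null arrays, against 9.76, 9.55 and 9.66 on the wild-type arrays. Here all null arrays were lower, by -0.95 (SE 0.17), a 1.93-fold lower signal.

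The other two probe sets of Vmn2r113, 17334037 and 17334042, held equal values on every array. They gave 9.39, 9.32 and 9.50 on the AP-2e null arrays, against 9.49, 9.62 and 9.53 on the wild-type arrays, a difference of -0.15 (SE 0.07) with overlapping arrays. Only the brightest of the 4 was therefore higher in the null, and the mean over the 4 was -0.25. RefSeq places Vmn2r113 on the plus strand. In the order of probe set numbers, all 20 nearest probe sets around 17341451 with a known strand belong to minus-strand genes, while around the other 3 all 20 belong to plus-strand genes. Which transcript 17341451 reads is not stated in these sources. The higher value for Vmn2r113 thus rests on a probe set whose place goes against the gene's strand. With the next brightest probe set in its place, a choice made after seeing the data, the mean difference of the 7 genes was -0.23.

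Vmn2r112 had higher signal in the null on average. Its log2 signals were 5.32, 5.05 and 5.07 on the AP-2e null arrays, against 4.51, 4.81 and 5.09 on the wild-type arrays. Wild-type replicate 3 reached into the null range and the other wild-type arrays lay below it. The difference was 0.34 (SE 0.17), and it was 0.19 without wild-type replicate 1.

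Vmn2r111, its head-to-head neighbour, was even across null arrays and spread in wild-type. Its log2 signals were 6.11, 6.13 and 6.09 on the AP-2e null arrays, against 6.39, 5.98 and 7.08 on the wild-type arrays. Wild-type replicate 2 lay below all null arrays. The difference of -0.37 (SE 0.27) rested on wild-type replicate 3, without which it was -0.08, and it was -0.62 without wild-type replicate 2.

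Vmn2r117, at the other end of the run, had log2 signals of 7.47, 6.85 and 7.26 on the AP-2e null arrays, against 7.35, 7.32 and 7.55 on the wild-type arrays. Null replicate 2 stood apart below, and the rest of the arrays overlapped. The difference was -0.21 (SE 0.17), and -0.04 without that null array. Null replicate 2 was also the array with by far the highest cartilage markers, whose part in this value was not tested beyond leaving the array out.

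**Figure D2:**
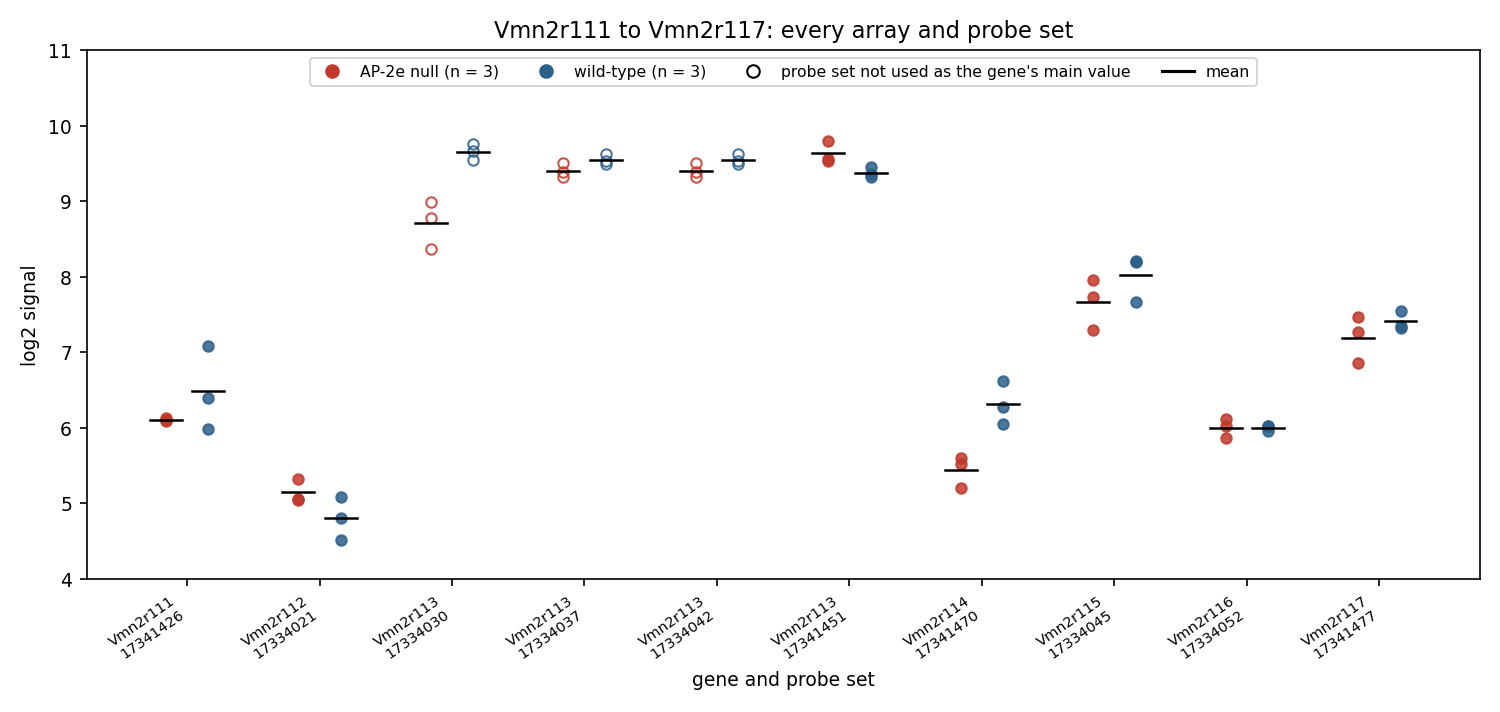
Log2 signal (vertical axis) on each array for the 10 probe sets of Vmn2r111 to Vmn2r117 (horizontal axis), AP-2e null in red and wild-type in blue, 3 arrays each, with the mean as a black line. Open circles are the probe sets of Vmn2r113 not used for its main value: of its 4 probe sets, only 17341451 is higher in the null. Levels of different probe sets are not comparable.

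The nearest measured V2R gene before the run and the nearest after it both had lower signals in the null, but neither stands close to it. In RefSeq order 39 other measured genes lie between Vmn2r110 and the run, and 658 between the run and Vmn2r118. Vmn2r110, the last V2R gene before it, had log2 signals of 3.03, 3.14 and 4.34 on the AP-2e null arrays, against 6.65, 6.75 and 6.70 on the wild-type arrays. Vmn2r118, the next V2R gene after it, had 4.06, 3.90 and 4.44 on the AP-2e null arrays, against 6.33, 6.86 and 6.78 on the wild-type arrays. The null arrays of both lay wholly below the wild-type arrays, with differences of -3.20 (SE 0.35) and -2.52 (SE 0.20). As the genes just outside the limits of the group they are given here without a p-value. Both are still included in the counts of other V2R genes.

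All 23 other V2R genes measured on chromosome 17 had lower means in the null, with a median of -2.52, and 10 of them fell past the threshold, beside 0.216% of all genes tested. Vmn2r120 had the smallest p of them and fell by 4.33 (limma, adjusted p = 0.000896), with signals of 3.11, 3.54 and 3.33 on the AP-2e null arrays, against 7.70, 7.44 and 7.84 on the wild-type arrays. By p it was followed by Vmn2r104, which fell by 4.22 (adjusted p = 0.00111), Vmn2r96, which fell by 3.70 (adjusted p = 0.00764), and Vmn2r105, which fell by 4.53 (adjusted p = 0.00996). The smallest difference among the 23 was -0.28 for Vmn2r109, whose arrays overlapped. It had 4.17, 3.57 and 3.72 on the AP-2e null arrays, against 3.64, 4.14 and 4.51 on the wild-type arrays.

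**Figure D3:**
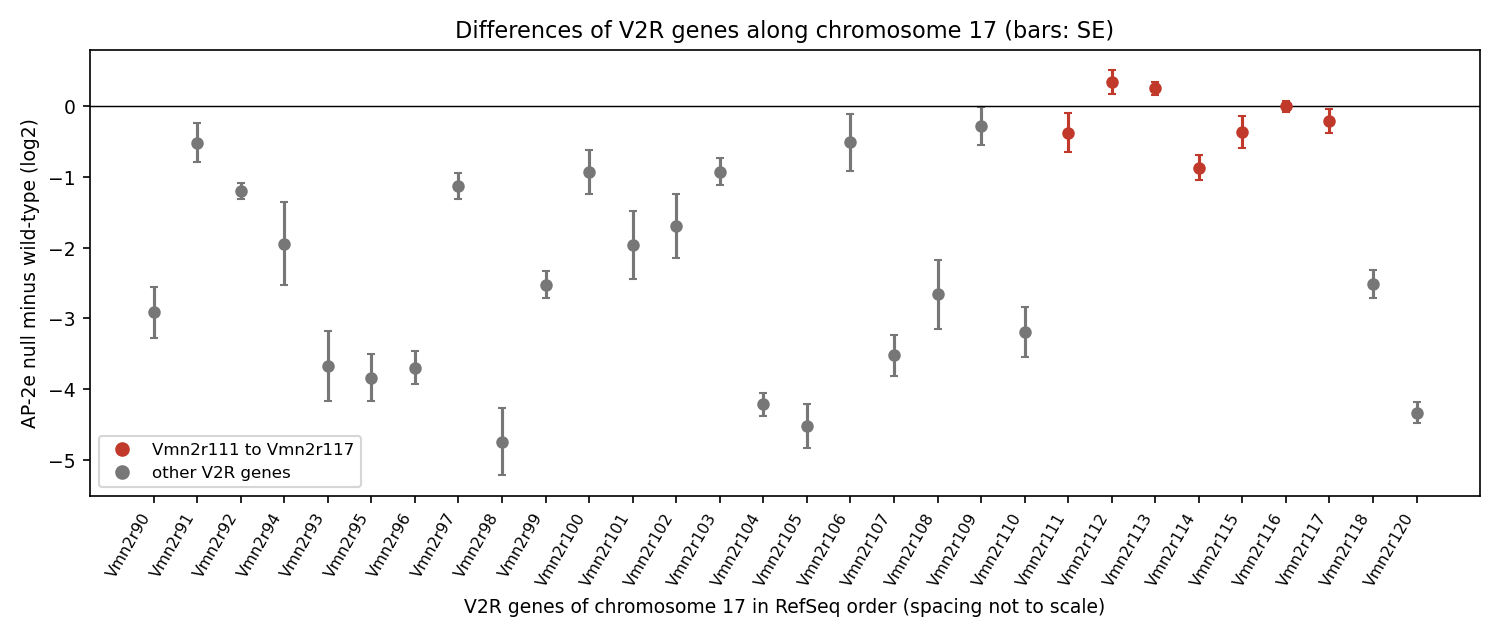
AP-2e null minus wild-type difference in log2 signal with its SE (vertical axis) for the 30 measured V2R genes of chromosome 17 in RefSeq order (horizontal axis, spacing not to scale), with Vmn2r111 to Vmn2r117 in red. The 7 genes lie between -0.87 and 0.34, with Vmn2r110 at -3.20 before them and Vmn2r118 at -2.52 after them.

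The lowest value of the 10 probe sets of the 7 receptors on any array was 4.51, for Vmn2r112 on wild-type replicate 1. On the arrays, the lower quartile of all probe sets lay between 3.58 and 3.66 and the median between 4.997 and 5.079. Vmn2r112, with values between 4.51 and 5.32, thus lay near the median of all probe sets.

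Of the other genes measured within the run 0 of 5 passed in limma, and 0 had an unadjusted p under 0.05. They were the zinc finger genes Zfp945 and Zfp40, the predicted genes Gm9805 and Gm16386, and Vmn2r-ps129, a transcribed V2R pseudogene, with differences between -0.09 and 0.21. Vmn2r-ps129 had log2 signals of 4.89, 4.47 and 4.202 on the AP-2e null arrays, against 4.42, 4.26 and 4.26 on the wild-type arrays, which overlapped. The 5 measured genes before the run were Zfp994, Gm7072, Zfp944, Zfp758 and Zfp946, and the 5 after it were 6330415G19Rik, Zfp213, Zfp13, Zscan10 and Mmp25. They differed by between -0.19 and 0.31, with 0 of the 10 past the threshold in limma and 0 with an unadjusted p under 0.05.

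The V2R genes outside the group with the windows nearest to those of the 7 receptors were mostly far lower in the null, and all lie on chromosome 7. Of the 109 V2R windows outside the group, 97 belong to measured genes. The 10 of these with the highest identity to one of the 7, between 63.9% and 66.0%, differed by between -0.79 and -4.604, with a median of -3.68. Of the 10, 7 fell, beside 42 of the 102 other V2R genes and 0.216% of all genes tested. Each of the 10 had another V2R window at least 93.69% identical to its own, so they do not stand for 10 separate sequences. Vmn2r44, the closest, fell by 4.17 (limma, adjusted p = 0.00111), and Vmn2r33, of the same chromosome 7 group, fell by 4.604 (adjusted p = 0.000896). Near-identical windows were found outside the group too. Of the 97 genes, 22 had another V2R window at least 95% identical to their own. These 22 had a median difference of -1.82, between -4.604 and 0.24. Of them 14 fell, to be read beside the same shares.

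**Figure D4:**
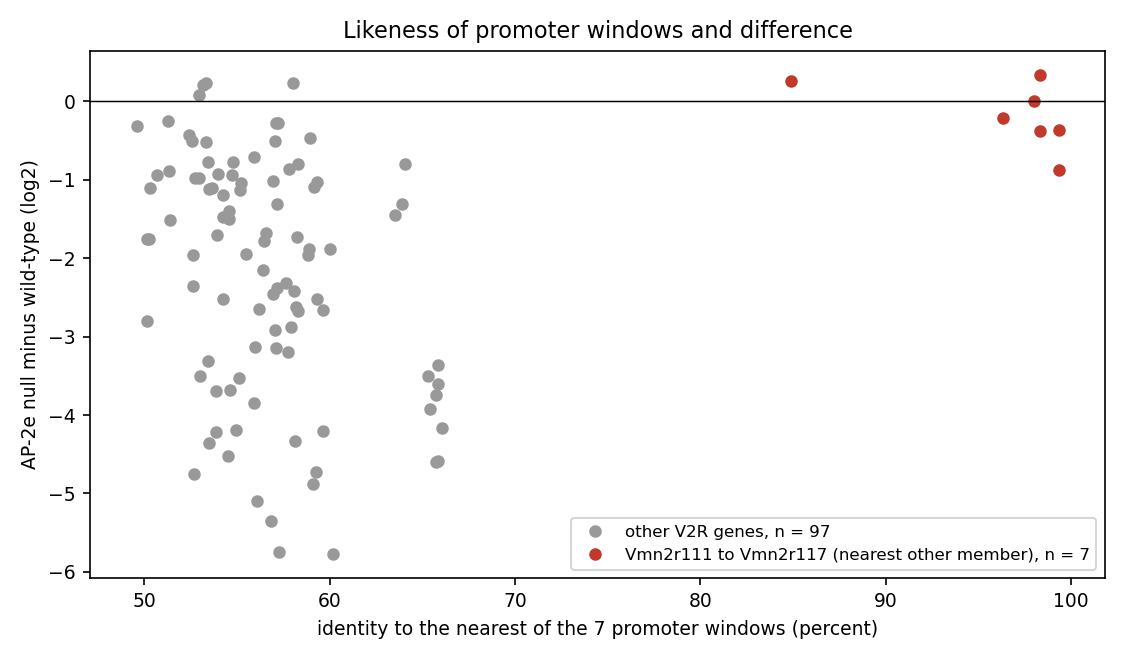
AP-2e null minus wild-type difference in log2 signal (vertical axis) against the identity of a gene's 300-base window to the nearest window among Vmn2r111 to Vmn2r117, in percent (horizontal axis), for the 7 genes in red (each against the nearest of the other 6) and 97 other measured V2R genes in grey. The 7 genes lie at 84.9% and above, and no other measured V2R gene lies above 66.04%.

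The receptors' profiles over the 6 arrays were set beside those of 294 other V2R, V1R, formyl peptide receptor and H2-M genes, by the root mean square distance after each gene's mean was removed. V1Rs are the receptors of the apical neurons. The 3 genes most like Vmn2r116 were Vmn1r205 (distance 0.07 on the log2 scale), the MHC class I gene H2-M5 (0.10) and Vmn1r53 (0.12). Vmn2r113, by its brightest probe set, was nearest to Vmn1r39 (0.06), Vmn2r19 (0.08) and Vmn1r226 (0.11). Vmn2r112 was nearest to Vmn1r120 (0.14), Vmn1r27 (0.15) and Vmn1r123 (0.15). For Vmn2r111 the nearest were Vmn1r85 (0.13), Vmn1r148 (0.17) and Vmn1r113 (0.18), and for Vmn2r117 they were Vmn1r66 (0.14), Vmn1r34 (0.15) and Vmn1r23 (0.16). The nearest genes of Vmn2r114 and Vmn2r115 were all V2R genes. They were Vmn2r51 (0.12), Vmn2r15 (0.15) and Vmn2r103 (0.15) for Vmn2r114, and Vmn2r91 (0.21), Vmn2r11 (0.22) and Vmn2r29 (0.23) for Vmn2r115. Of the 21 nearest places, 3 for each gene, V1R genes took 13, V2R genes 7 and H2-M genes 1. The 294 candidates held 176 V1R, 102 V2R, 12 H2-M and 4 formyl peptide receptor genes, so the places were split much as the candidates. The distances use the same values on which the 7 genes were chosen. Likeness to genes that differ little between the genotypes therefore follows from that choice, and nothing about neuron class follows from it.

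The partners of these receptors in basal neurons mostly had lower means in the null. All 7 family C co-receptors had lower means, with a median of -1.75, and 4 fell, beside 0.216% of all genes tested. Vmn2r5 had log2 signals of 2.14, 1.97 and 1.77 on the AP-2e null arrays, against 5.08, 4.85 and 4.86 on the wild-type arrays, and fell by 2.97 (limma, adjusted p = 0.00111). Vmn2r7 fell by 1.75 (adjusted p = 0.00465), Vmn2r6 fell by 1.76 (adjusted p = 0.00996) and Vmn2r4 fell by 2.80 (adjusted p = 0.0221). Vmn2r1, the co-receptor that pairs with another share of the basal neurons than Vmn2r2 to Vmn2r7, had 8.62, 8.49 and 8.47 on the AP-2e null arrays, against 9.87, 9.34 and 9.29 on the wild-type arrays. Its difference of -0.98 did not pass (adjusted p = 0.342).

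H2-Mv genes, MHC class Ib genes made in part of the basal neurons, all had lower means in the null, with a median of -0.81 over 9 genes. Of these 1, H2-M1, fell by 2.82 (limma, adjusted p = 0.0271), beside 0.216% of all genes tested. Calr4, a calreticulin-family chaperone gene, had the smallest p of the basal markers, with log2 signals of 7.93, 7.88 and 8.01 on the AP-2e null arrays, against 8.88, 8.87 and 9.36 on the wild-type arrays. Its difference of -1.096 did not pass (limma, adjusted p = 0.141). Gnao1, the basal G protein subunit, had log2 signals of 9.79, 9.88 and 9.90 on the AP-2e null arrays, against 10.45, 10.38 and 10.77 on the wild-type arrays. Its difference of -0.68 did not pass (adjusted p = 0.331). Of 5 basal markers 0 passed in limma and 4, all lower, had an unadjusted p under 0.05, with a median of -0.50. The remaining marker, Gng8, differed by 0.06 with overlapping arrays. Of 7 apical markers 0 passed and 3 had an unadjusted p under 0.05, with a median of 0.08. Gng2 (0.36) and Meis2 (0.26) were higher and Kirrel2 (-0.35) was lower. Of 10 genes shared by both neuron classes 0 passed and 2 had an unadjusted p under 0.05, with a median of -0.02. Rtp1 was higher (0.44) and Ano2 lower (-0.40).

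ESP peptides are made chiefly in tear and salivary glands, and of 14 measured Esp genes 0 passed in limma, 0 had an unadjusted p under 0.05, and the median difference was -0.06. Esp1 had log2 signals of 2.65, 3.16 and 2.91 on the AP-2e null arrays, against 2.68, 3.19 and 3.05 on the wild-type arrays, under the lower quartile of probe sets throughout. Of the 14 genes, 11 lay under that quartile on every array, and the other 3 (Esp8, Esp15 and Esp18) had signals between 3.775 and 4.85.

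Marker genes of other cells in the tissue were measured beside them. Over 8 lists (supporting cells, multiciliated cells, leukocytes, neutrophils, endothelium, cartilage, skeletal muscle and glia) 0 genes passed in limma and 1 (Ptprc) had an unadjusted p under 0.05, with list medians between -0.39 for skeletal muscle and 0.57 for cartilage. The mean signal of the cartilage list was 5.62, 8.04 and 5.75 on AP-2e null arrays 1, 2 and 3, against 5.78, 5.95 and 5.91 on wild-type arrays 1, 2 and 3. Null replicate 2, the array that is low for Vmn2r117, thus stood alone, with Acan at 9.70 on it, against between 6.79 and 7.46 on the other arrays. The neutrophil list had means of 7.89, 8.01 and 7.67 on the AP-2e null arrays, against 7.88, 7.35 and 6.78 on the wild-type arrays. Its lowest array was wild-type replicate 3, where the mean of the 7 receptors was highest, as was that of the other V2R genes. The part of these markers in the values of the 7 receptors was not tested.

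Probes may bind more than 1 of these receptors, which leaves each member's own value uncertain. Likeness was measured for the start windows only, not for the transcripts that the probes read. The probe sequences were not used here, and how much of each signal comes from a neighbouring member was not tested.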

How the data were processed

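VNO RNA of 3 AP-2e null and 3 wild-type samples (postnatal day 17) was measured on 1 array each. The deposited table holds log2 signals, 1 per probe set and array. Per the submitters' processing notes, which name no version, the authors used RMA (background correction, quantile normalization, probe summary) and the Transcriptome Analysis Console. No source used here names the build behind the array's annotation. Therefore RefSeq (GRCm38.p6) served for names, gene order and the start windows.

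Of 41345 probe sets, 23521 name 1 gene. Each of 22180 genes was read by its brightest probe set (highest mean of 6 arrays), and no dim gene was left out. The genotypes were compared in R 4.3.3 by limma 3.58.1 (lmFit, eBayes, 2-sided, no covariate, Benjamini-Hochberg). Each difference is the AP-2e null mean less the wild-type mean, with the fit's SE. Windows were aligned globally in Biopython 1.88 (match 1, mismatch -1, gap opening -2, gap extension -0.5), and identity is matches over alignment length. The code of the fit was run on simulated arrays with independent noise and known changes. Such arrays lack the cell marker differences seen between the real ones. The precision is limited by the number of arrays.

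Members and gene lists were chosen with earlier results of these data known. Named are all members with every probe set, Tfap2e, the 5 measured genes on each side of the run, the 3 most similar receptor genes per member, and up to 4 genes per list by smallest p. Outside this rule, Vmn2r44, Vmn2r33, Vmn2r109, Vmn2r110 and Vmn2r118 were named for their place in a comparison, and Vmn2r1 and Esp1 for their known role. Gng8, Acan, Ptprc, other Esp genes and other genes of the run were named after their values were seen. The alternatives were other probe set rules, scalings, a dim-gene filter, other moderation, array weights, a plain one-way test, the replicate number as a block, leaving out each array, and the added choice for Vmn2r113.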

Additional observations from a re-analysis of the deposited data

How the results depend on the processing

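The mean difference of the 7 genes (-0.17) stayed below 0 in all 13 alternatives, among them the replicate block, which cannot change it. It was -0.35 when each gene was read by its dimmest probe set, which changed Vmn2r113 alone among the 7, and between -0.21 and -0.11 with single arrays left out. The gap to the other V2R genes (2.05) was 1.90 with the dimmest probe sets and between 2.01 and 2.11 with single arrays left out, where the mean difference of the other V2R genes lay between -2.32 and -2.12. Vmn2r113 changed sign with the dimmest probe set (-0.95), the mean of its probe sets (-0.25) and its next brightest probe set (-0.15).

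Over all genes, 48 fell and 2 rose. With single arrays left out, between 17 and 32 fell and between 0 and 1 rose. The plain one-way test gave 7 lower and 0 higher. The number of higher genes was 1 with array weights, 1 with the mean of probe sets, 1 with the dimmest probe set, 4 with median centring and 4 with repeated quantile normalization. The cause of these shifts was not tested. With the replicate number as a block, 22 genes fell and 0 rose. The mean difference of the 7 genes stayed -0.17, which the block cannot change because each number occurs once per genotype. Same-numbered arrays deviated together with correlations of 0.04, 0.11 and 0.02, and 1 of 3 null arrays was closest to its own number, so the numbers were not taken as pairs.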

Other observations

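On other chromosomes, 5 V2R genes had a difference above that of Vmn2r117, between -0.02 and 0.24, and they are named here after their values were seen. Vmn2r22 on chromosome 6 had log2 signals of 6.81, 6.63 and 6.43 on the AP-2e null arrays, against 6.78, 6.15 and 6.24 on the wild-type arrays. Vmn2r19, also on chromosome 6, had 3.48, 3.41 and 3.63 on the AP-2e null arrays, against 3.32, 3.38 and 3.17 on the wild-type arrays, the only one of the 5 whose genotypes did not overlap. Vmn2r26, on the same chromosome, had 6.87, 6.98 and 6.85 on the AP-2e null arrays, against 7.51, 6.50 and 6.45 on the wild-type arrays. Vmn2r68 on chromosome 7 had 5.34, 5.35 and 5.34 on the AP-2e null arrays, against 6.30, 5.09 and 3.93 on the wild-type arrays. Vmn2r122 on chromosome 4 had 8.39, 8.23 and 8.32 on the AP-2e null arrays, against 7.81, 7.36 and 9.84 on the wild-type arrays. For Vmn2r26, Vmn2r68 and Vmn2r122 the null arrays lay close together inside a wide wild-type range, as they did for Vmn2r111.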
